A study of Mus musculus with 6 samples.

Results

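Of the 22740 genes counted in pigment-sorted B16-F3 melanoma cells, 27 stood higher in every low-pigmented library than in any high-pigmented one by a set margin and were not left out by name. They were chosen on CPM, the usual depth-scaled unit in which a gene's count is divided by its library's total. A gene had to average at least 10 CPM over the 6 libraries, and its lowest level in low-pigmented cells had to be at least 1.3 times its highest level in high-pigmented cells. Of 9387 genes at 10 CPM or more, 35 met both limits (0.373%), and 8 of them (Atp2b4, Slc6a15, Ajuba, Myc, Zscan10, Slc44a3, Nfix and Kmt2a) were left out by name or name prefix. The opposite limits, with high-pigmented cells above, were met by 37 genes (0.394%). Because these same libraries chose the genes, their difference between the sorted populations is described here without a test.

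B16-F3 is an established line of mouse melanoma, a tumour of the pigment cell. Cells grown in serum-containing medium were sorted by flow cytometry into low-pigmented cells (LPC, 3 libraries) and high-pigmented cells (HPC, 3 libraries), and RNA was read at transcript 3′ ends. Both groups are one cell line, the labels name no engineered allele or added agent, and nothing in them tells whether a replicate was its own culture or sort. Any p-value therefore reflects only library-to-library spread, possibly technical.

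Library totals ran from 14695822 to 18810435 counts in LPC and from 18131623 to 22186743 counts in HPC. Mitochondrial genes took 2.36% to 2.56% of the counts in LPC and 2.07% to 3.21% in HPC, with HPC replicate 1 the highest. The 7 melanocyte markers summed to 32468 to 34760.4 CPM in LPC and to 33368 to 36210.3 CPM in HPC, all 7 being detected. Tyr, the gene of the rate-limiting enzyme of melanin synthesis, stood at 264, 62.6 and 239 CPM in LPC replicates 1, 2 and 3 and at 892, 855 and 992 CPM in HPC replicates 1, 2 and 3, the direction the sort labels give. It was the only one of the 7 to separate the populations. For Pmel, Dct, Sox10, Mlana, Tyrp1 and Mitf the LPC and HPC libraries overlapped, with Dct at 13400 to 14549 CPM in LPC and 12404 to 13945 CPM in HPC. Markers of other cell types summed to far less than the melanocyte markers. The 8 immune markers summed to 3.95 to 9.07 CPM in LPC and to 8.16 to 15.4 CPM in HPC, mostly Cd68, with Ptprc, Cd3e, Itgam and Nkg7 at 0. The 6 fibroblast markers summed to 17.6 to 34.5 CPM in LPC and to 19.2 to 27.6 CPM in HPC, with Acta2 at 0. The 4 endothelial markers stayed at or under 0.213 CPM in LPC and 0.355 CPM in HPC, with Kdr and Cdh5 at 0. The 4 keratinocyte markers stayed at or under 3.02 CPM in LPC and 4.30 CPM in HPC, with Krt5 and Krt14 at 0.

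Pigment cells derive from the neural crest, and melanoma cells of one line can hold different amounts of melanin. Melanin is made from tyrosine in melanosomes, by the enzyme tyrosinase and its relatives, under the control of the transcription factor MITF. The 27 genes form no single pathway. They are grouped below by what their products do, as secreted and matrix proteins, cell surface proteins, enzymes of folding, steroid, lipid and redox chemistry, cytoskeletal, signalling and vesicle proteins, nuclear proteins, and 3 genes that fit none of these.

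Promoters of 4 of the genes are shown because they span the range of the set. Bcan had the largest ratio between the populations, Tagln2 the largest among cytoskeletal genes, Lmo1 nearly the same ratio in each numbered pair of libraries, and Cubn the most reads. Each sequence is RefSeq's on GRCm38.p6, runs 5′ to 3′ on the gene's own strand, and covers 250 bases before to 50 bases after a transcript start. The windows are chr3:88000307-88000606 on the minus strand for Bcan, chr1:172499996-172500295 on the plus strand for Tagln2, chr7:109175158-109175457 on the minus strand for Lmo1, and chr2:13491827-13492126 on the minus strand for Cubn. Capitals mark matches to any of 7 short motifs, searched on both strands. These are the E-box CACGTG, the M-box core CATGTG, the AP-1 motif TGANTCA, the TEAD motif GGAATG, the SOX motif ACAAAG, the TATA box TATAAA and the GC box GGGCGG.
Bcan: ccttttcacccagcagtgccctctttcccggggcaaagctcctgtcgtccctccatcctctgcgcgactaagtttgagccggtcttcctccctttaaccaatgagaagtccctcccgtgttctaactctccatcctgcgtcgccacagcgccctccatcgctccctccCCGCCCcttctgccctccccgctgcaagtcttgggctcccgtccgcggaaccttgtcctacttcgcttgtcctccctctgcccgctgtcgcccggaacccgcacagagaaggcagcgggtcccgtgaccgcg
Tagln2: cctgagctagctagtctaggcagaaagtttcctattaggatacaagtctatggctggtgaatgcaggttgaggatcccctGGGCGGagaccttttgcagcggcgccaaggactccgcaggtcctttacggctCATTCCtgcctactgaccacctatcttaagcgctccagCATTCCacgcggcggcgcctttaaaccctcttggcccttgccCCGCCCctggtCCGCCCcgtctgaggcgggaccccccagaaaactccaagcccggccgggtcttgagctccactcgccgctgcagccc
Lmo1: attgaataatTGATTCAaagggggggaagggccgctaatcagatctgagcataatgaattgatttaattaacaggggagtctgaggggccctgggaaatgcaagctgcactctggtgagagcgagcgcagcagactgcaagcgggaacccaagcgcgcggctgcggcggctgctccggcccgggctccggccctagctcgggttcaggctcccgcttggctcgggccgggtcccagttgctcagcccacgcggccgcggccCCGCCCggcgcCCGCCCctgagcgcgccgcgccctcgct
Cubn: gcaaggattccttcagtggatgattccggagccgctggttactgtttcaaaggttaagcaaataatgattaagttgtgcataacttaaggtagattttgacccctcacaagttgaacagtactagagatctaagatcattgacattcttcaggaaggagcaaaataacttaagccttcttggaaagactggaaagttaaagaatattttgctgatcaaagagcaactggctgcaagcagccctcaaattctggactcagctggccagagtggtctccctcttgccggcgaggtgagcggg

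The Bcan window held 1 match, a GC box, and 24 CpG dinucleotides. The Tagln2 window held 3 GC boxes and 2 TEAD motifs. The Lmo1 window held 2 GC boxes and an AP-1 motif, and the Cubn window, with 5 CpG dinucleotides, held none of the 7 motifs. Promoters were found for 21 of the 27 genes, counting 1 start per gene. The GC box was in 16 of the 21 (76.2%), against 69.2% of 7207 genes at 10 CPM or more with a promoter and 35.9% of all 27025 promoters. The E-box, which MITF and MYC bind, was in 2 (9.52%), against 10.9% and 7.24%, and the M-box core was in 3 (14.3%), against 7.70% and 14.1%. The AP-1, TEAD and TATA motifs were in 1 promoter each, and the SOX motif was in 0, against 4.27%, 11%, 5.84% and 12.5% of the genes at 10 CPM or more. The median promoter of the set had a GC content of 62.0% and 20 CpG dinucleotides, and that of genes at 10 CPM or more 61.7% and 22.

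In the set as a whole, the ratio of mean LPC to mean HPC level had a median of 1.79 and ran from 1.54 for Gfod1 to 3.58 for Bcan, against a median of 1.01 over the 9387 genes. It was at least 2 for 11 genes and below 2 for 16. The summed level of the 27 genes was 927, 981 and 956 CPM in LPC replicates 1, 2 and 3, and 538, 508 and 503 CPM in HPC replicates 1, 2 and 3. Most of the genes sat low in the library, with 14 below 20 CPM on average and Cubn the highest at 145 CPM. In bulk RNA a higher level per cell and a larger share of cells with the transcript cannot be told apart. The median level was 18.8 CPM, against 54.9 CPM over all genes at 10 CPM or more. The smallest count behind any value was 44 reads, for Bcan in HPC replicate 2.

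**Figure D1:**
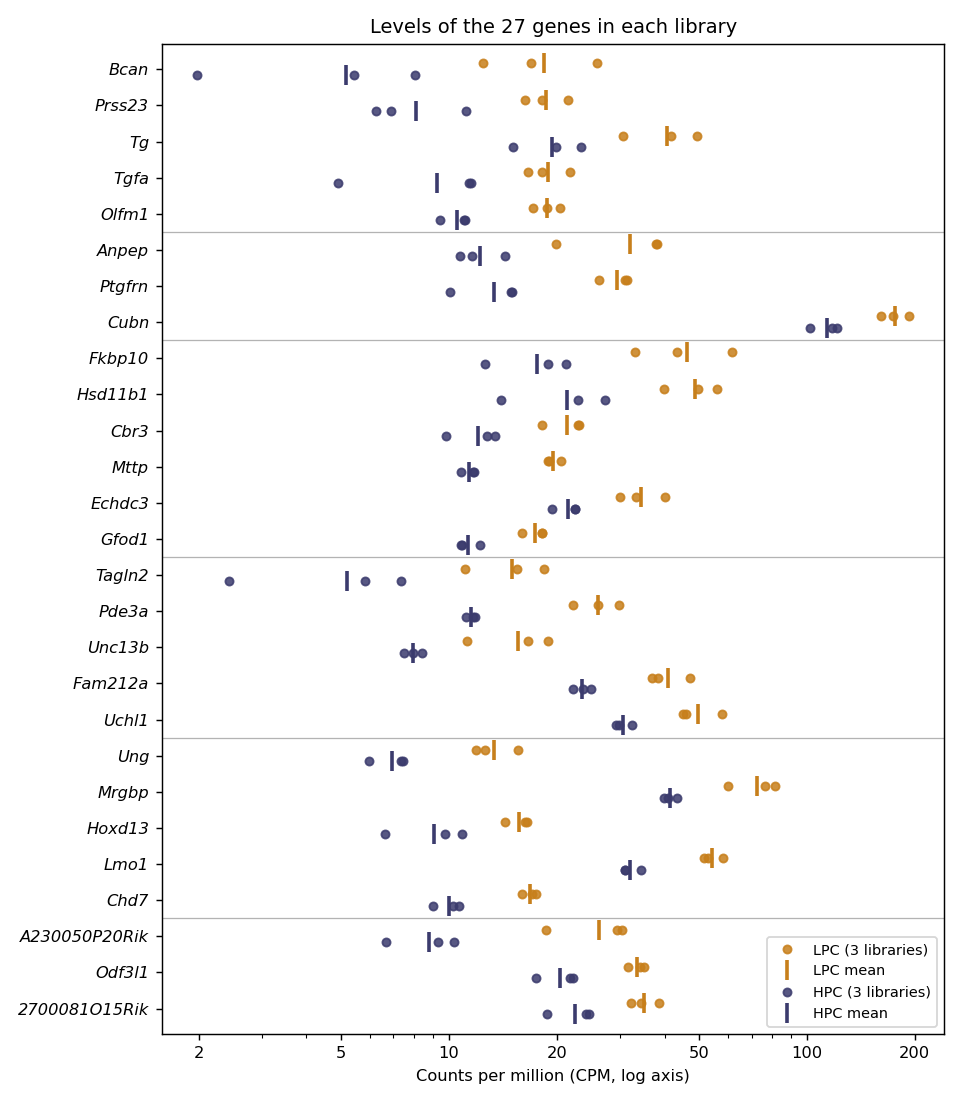
Levels of the 27 genes in CPM on a log axis, 1 row per gene, with LPC libraries (orange) drawn above HPC libraries (dark blue), 3 dots per group and a bar at the mean; grey lines part the groups by role. Every orange dot lies right of every dark blue dot in its row, as the choice of genes requires, and Cubn lies farthest right at 161 to 193 CPM in LPC and 102 to 121 CPM in HPC.

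Of 5 genes for secreted and matrix proteins, 4 had at least 2-fold higher means in LPC, and the group's median ratio was 2.09. Bcan encodes brevican, a chondroitin sulfate proteoglycan of the brain's extracellular matrix. It stood at 12.5, 17.0 and 25.9 CPM in LPC replicates 1, 2 and 3, and at 8.05, 1.98 and 5.43 CPM in HPC replicates 1, 2 and 3. The mean was 3.58-fold higher in LPC (18.4 ± 6.83 CPM in LPC and 5.15 ± 3.04 CPM in HPC, SD, n = 3 each). HPC replicate 2 was far below the other HPC libraries, and LPC replicate 1 came closest to the HPC range. The ratio between equally numbered libraries was 1.55 for number 1, 8.55 for number 2 and 4.77 for number 3, the widest scatter of the 27 genes.

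Prss23 encodes a secreted serine protease. It was at 18.2, 21.5 and 16.3 CPM in the LPC replicates and at 6.89, 11.1 and 6.24 CPM in the HPC replicates, 2.30-fold apart (18.6 ± 2.64 and 8.09 ± 2.66 CPM, SD, n = 3 each). Tgfa encodes transforming growth factor alpha, a ligand of the EGF receptor. Its LPC libraries were close together at 18.2, 16.6 and 21.8 CPM, whereas its HPC libraries held 11.4, 4.91 and 11.5 CPM, with replicate 2 set apart. The ratio of means was 2.04 (18.9 ± 2.69 and 9.26 ± 3.77 CPM).

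Tg encodes thyroglobulin, the protein precursor of thyroid hormone. It was at 49.3, 41.8 and 30.6 CPM in LPC replicates 1, 2 and 3 and at 19.9, 23.3 and 15.1 CPM in HPC replicates 1, 2 and 3, a ratio of 2.09 (40.6 ± 9.40 and 19.4 ± 4.16 CPM). In both populations replicate 3 was the lowest library. Olfm1, which encodes the secreted glycoprotein olfactomedin 1 of neural tissue, was the steadiest of these genes, at 20.4, 18.8 and 17.1 CPM in the LPC replicates and 11.1, 9.42 and 11 CPM in the HPC replicates. Its means were 1.79-fold apart (18.8 ± 1.64 and 10.5 ± 0.939 CPM).

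Among the 3 cell surface genes, Anpep and Ptgfrn were more than 2-fold higher in LPC and Cubn was 1.55-fold higher. Anpep encodes aminopeptidase N, a peptidase of the outer membrane also known as CD13. It was at 19.9, 38.1 and 37.8 CPM in LPC replicates 1, 2 and 3, and at 11.6, 10.7 and 14.3 CPM in HPC replicates 1, 2 and 3. LPC replicate 1 lay nearer to the HPC libraries than to the other LPC libraries, and the ratio of means was 2.62 (31.9 ± 10.4 and 12.2 ± 1.87 CPM, SD, n = 3 each).

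Ptgfrn encodes an immunoglobulin superfamily protein that binds tetraspanins and restrains prostaglandin F receptor signalling. It was at 26.2, 31.4 and 31.0 CPM in the LPC replicates and 15, 10.1 and 14.9 CPM in the HPC replicates, 2.22-fold apart (29.6 ± 2.91 and 13.3 ± 2.79 CPM). Cubn encodes cubilin, an endocytic receptor for the vitamin B12 and intrinsic factor complex in gut and kidney. It was at 193, 161 and 173 CPM in LPC and at 117, 121 and 102 CPM in HPC (176 ± 15.8 and 113 ± 10.3 CPM). The smallest count behind a Cubn value was 2006 reads, and its margin of 1.33 lay near the limit.

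The 6 genes for enzymes of folding, steroid, lipid and redox chemistry had ratios from 1.54 to 2.62. Fkbp10 encodes a prolyl isomerase of the endoplasmic reticulum that helps collagen fold. It was at 33.1, 61.8 and 43.4 CPM in LPC replicates 1, 2 and 3 and at 12.6, 21.3 and 18.9 CPM in HPC replicates 1, 2 and 3. In both populations replicate 2 was highest and replicate 1 lowest, so the ratio stayed between 2.30 and 2.91 when equally numbered libraries were set against each other. The means were 46.1 ± 14.5 CPM in LPC and 17.6 ± 4.47 CPM in HPC (SD, n = 3 each).

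Hsd11b1 encodes the enzyme that turns inactive 11-keto steroids into active glucocorticoids. Its levels were 56.2, 39.9 and 49.5 CPM in LPC and 27.2, 14 and 22.9 CPM in HPC, 2.27-fold apart (48.6 ± 8.18 and 21.4 ± 6.76 CPM). Replicate 2 was lowest in both populations, the reverse of the order of Fkbp10. Mttp encodes the transfer protein that loads lipid onto apolipoprotein B. It had small spreads in both populations, at 20.6, 18.9 and 19 CPM in LPC and 11.6, 10.8 and 11.7 CPM in HPC, a ratio of 1.71 (19.5 ± 0.969 and 11.4 ± 0.523 CPM). Both spreads were below what counting alone gives, at 4.97% against 5.65% in LPC and 4.60% against 6.64% in HPC.

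Cbr3, a carbonyl reductase gene, was at 22.9, 23.1 and 18.1 CPM in LPC and at 12.8, 13.5 and 9.84 CPM in HPC, 1.78-fold apart. Echdc3, a gene of the enoyl-CoA hydratase domain family, was at 33.3, 30.1 and 40.0 CPM in LPC and 22.4, 19.4 and 22.5 CPM in HPC, 1.61-fold apart. Gfod1, which encodes a protein with a glucose-fructose oxidoreductase domain, had the smallest ratio and the smallest margin of the set, at 18.2, 15.9 and 18.1 CPM in LPC and 10.8, 10.9 and 12.2 CPM in HPC. Replicate 3 was the lowest library of both populations for Cbr3, and the HPC spread of Gfod1 was close to what counting alone gives, with a coefficient of variation of 6.96% against 6.65%.

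The 5 genes of cytoskeleton, signalling and vesicles had a median ratio of 1.96. Tagln2 encodes transgelin 2, an actin-binding protein. It was at 15.4, 18.4 and 11.1 CPM in LPC replicates 1, 2 and 3 and at 7.34, 5.81 and 2.43 CPM in HPC replicates 1, 2 and 3, which is 48 reads in the last of them. Replicate 3 was lowest in both populations, and the ratio of means was 2.88 (15 ± 3.68 and 5.19 ± 2.51 CPM, SD, n = 3 each). The HPC spread of 48.3% of the mean was several times the 9.84% that counting alone gives.

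Pde3a encodes a phosphodiesterase that degrades cAMP and cGMP, and cAMP is the messenger through which melanocyte-stimulating hormone acts on pigment cells. It had the largest margin of the 27 genes, 1.89. Its LPC libraries held 29.8, 22.3 and 26.1 CPM, and its HPC libraries 11.7, 11.8 and 11.2 CPM, the tightest HPC group of the set (26.1 ± 3.76 and 11.6 ± 0.349 CPM, ratio 2.26). That HPC spread, 3.02% of the mean, was below the 6.57% that counting alone gives. Unc13b, which encodes a vesicle priming factor of secretory cells and synapses, was at 11.2, 16.6 and 18.9 CPM in LPC and 7.94, 7.48 and 8.42 CPM in HPC, 1.96-fold apart. LPC replicate 1 was the library nearest to the HPC range for this gene too.

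Fam212a, now called Inka1, encodes an inhibitor of the kinase PAK4. It was at 38.3, 47.2 and 37.0 CPM in LPC and 24.9, 23.7 and 22.2 CPM in HPC, a ratio of 1.73 (40.8 ± 5.51 and 23.6 ± 1.36 CPM). Uchl1, a ubiquitin hydrolase gene typical of neurons, was at 45.0, 58.0 and 45.9 CPM in LPC and 32.5, 29.9 and 29.2 CPM in HPC, a ratio of 1.62 (49.6 ± 7.27 and 30.5 ± 1.72 CPM). For both genes LPC replicate 2 stood above the other LPC libraries, while the HPC libraries lay close together.

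The 5 nuclear genes lay in a narrow band of ratios, from 1.69 for Chd7 to 1.93 for Ung, and none reached 2. Ung encodes uracil-DNA glycosylase, which removes uracil from DNA. It was at 15.6, 12.6 and 11.9 CPM in LPC and 7.45, 5.99 and 7.35 CPM in HPC (13.4 ± 1.96 and 6.93 ± 0.812 CPM, SD, n = 3 each). Mrgbp, which encodes a subunit of the NuA4 histone acetyltransferase complex, was at 60.1, 81.4 and 76.5 CPM in LPC and 43.3, 39.8 and 40.9 CPM in HPC, a ratio of 1.76. LPC replicate 1 was the library nearest to HPC for Mrgbp, while HPC varied by only 4.39% of its mean.

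Hoxd13 encodes a homeobox factor that patterns the distal limb and the hind end of the body axis. It was at 16.3, 16.5 and 14.3 CPM in LPC and 9.76, 10.9 and 6.64 CPM in HPC, a ratio of 1.73 (15.7 ± 1.21 and 9.09 ± 2.19 CPM). Lmo1 encodes a LIM-only cofactor that bridges transcription factors and acts as an oncogene in T cell leukaemia. Its libraries were even, at 53.1, 58.1 and 51.7 CPM in LPC and 30.9, 34.4 and 31.0 CPM in HPC (54.3 ± 3.38 and 32.1 ± 1.98 CPM, ratio 1.69), and the ratios of equally numbered libraries were 1.72, 1.69 and 1.67. Chd7 encodes a chromatin remodeler needed in neural crest development. It had the smallest LPC spread of the set, 4.70% of the mean, at 16, 17.1 and 17.5 CPM in LPC and 10.7, 9.01 and 10.3 CPM in HPC. That LPC spread was below the 6.06% that counting alone gives.

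The last 3 genes belong to no shared group. A230050P20Rik is listed by RefSeq as Shfl, an antiviral gene induced by interferon that limits ribosomal frameshifting. It was at 18.6, 29.5 and 30.4 CPM in LPC and 6.67, 10.3 and 9.33 CPM in HPC, 2.98-fold apart, the second largest ratio of the set (26.2 ± 6.54 and 8.78 ± 1.89 CPM, SD, n = 3 each). Replicate 1 was the lowest library in both populations, and the ratio between equally numbered libraries stayed between 2.79 and 3.26. Odf3l1, a gene related to an outer dense fibre protein of sperm tails, was at 31.6, 35.0 and 34.1 CPM in LPC and 22.2, 17.5 and 21.8 CPM in HPC, 1.64-fold apart. The gene 2700081O15Rik was at 34.3, 32.3 and 38.7 CPM in LPC and 24.2, 18.8 and 24.6 CPM in HPC, 1.56-fold apart.

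The genes just inside the margin were Gfod1 (1.31), 2700081O15Rik (1.31), Tg (1.31) and Hoxd13 (1.32). Among those just outside it were Tpm1, a tropomyosin gene, Hapln4, a brain matrix link protein gene, and Ehd2, a membrane trafficking gene, all at 1.27. Tpm1 averaged 402 ± 35.4 CPM in LPC and 263 ± 18.7 CPM in HPC, a ratio of 1.53 (SD, n = 3 each). Hapln4 averaged 39.2 ± 7.58 and 20.9 ± 4.59 CPM. The limit thus fell within a continuous range of margins, and 7.33% of the genes at 10 CPM or more had every LPC library above every HPC library.

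**Figure D2:**
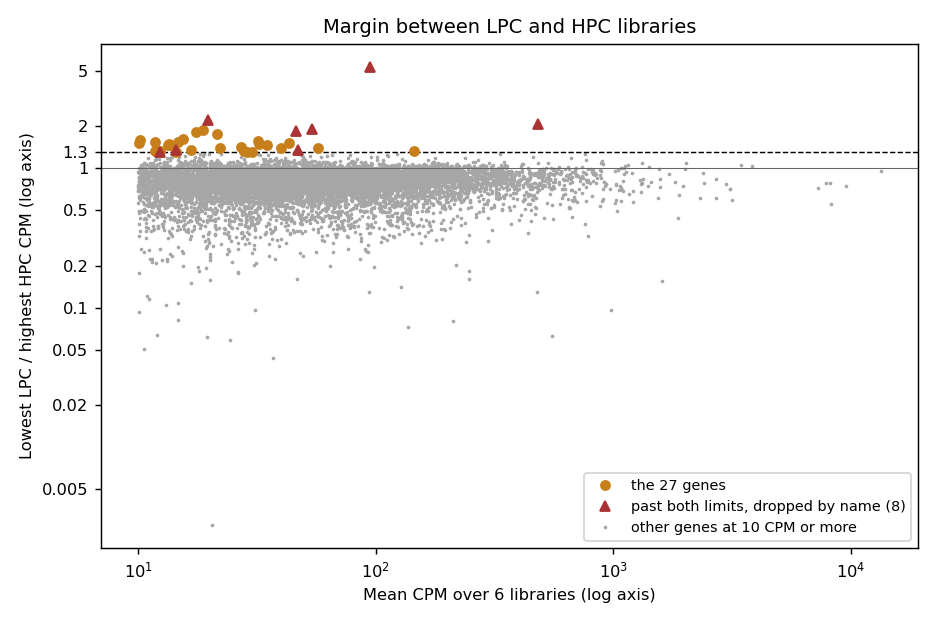
Margin of each gene, its lowest LPC level divided by its highest HPC level, against its mean level over 6 libraries, both on log axes, for the 9387 genes at 10 CPM or more. The 27 genes (orange) lie above the dashed line at 1.3, up to 1.89 for Pde3a, and the 8 genes left out by name (red triangles) include the 4 widest margins, with Zscan10 at 5.31.

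Among equally numbered libraries, the ratio of LPC to HPC had a median over the 27 genes of 1.72 for number 1, 1.99 for number 2 and 1.87 for number 3, against 1.03, 1.01 and 1.00 over all genes at 10 CPM or more. It was at least 2 for 8, 11 and 12 of the genes in numbers 1, 2 and 3. The ratio was smallest in number 1 for 15 of the 27 genes and largest in number 2 for 14. For these counts, and for those at least 2, the shares over all genes were not counted. They rest on the same levels that chose the genes, so they are description only. LPC replicate 2 was the highest LPC library for 12 of the 27 genes, against 24.0% of all genes at 10 CPM or more. HPC replicate 2 was the lowest HPC library for 14, against 28.5%. These counts too rest on the levels that chose the genes and are description only. Within LPC the coefficient of variation had a median of 14.3% over the 27 genes and within HPC 12.5%, against 12.5% and 10.4% over all genes at 10 CPM or more. The 27 genes had fewer reads, and counting alone gave medians of 4.84% in LPC and 6.43% in HPC, against 3.36% and 3.02% over all genes. The margin also limits the spread within a population, so the 2 sets are not directly comparable.

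**Figure D3:**
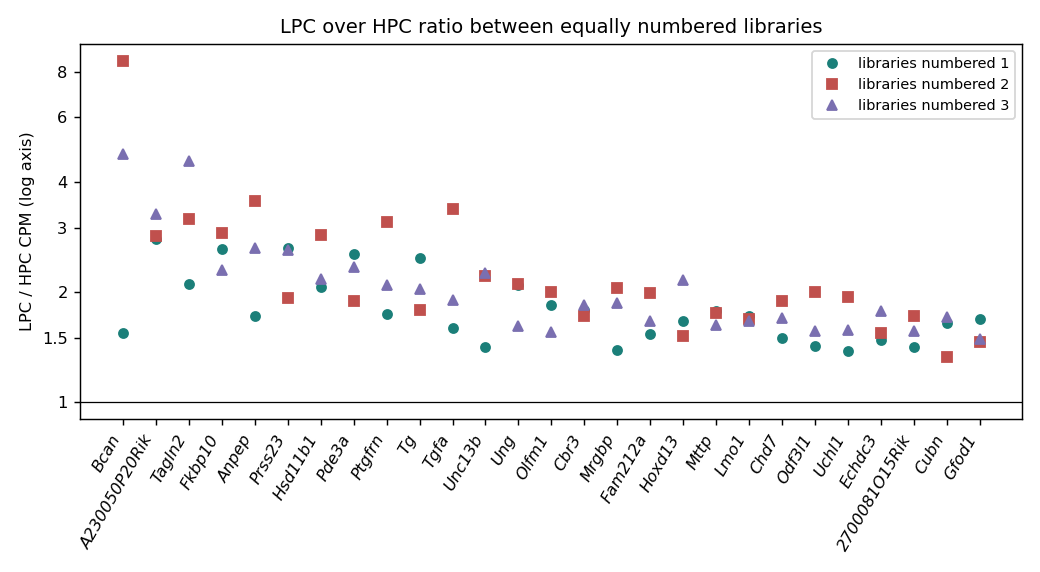
Ratio of LPC to HPC level between libraries that carry the same replicate number, on a log axis, for the 27 genes in order of their mean ratio. The points spread widely for Bcan, at 1.55, 8.55 and 4.77, and narrow to the right, with Lmo1 at 1.72, 1.69 and 1.67.

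Whether a gene differed between libraries numbered 1, 2 and 3 was tested across all 11921 genes that passed a filter on low counts, since the choice of the 27 did not use the numbers. The margin does limit how far libraries of one population can lie apart. In edgeR's quasi-likelihood test of the replicate number beside the group, 1 of the 27 genes passed, against 379 of 11921 genes (3.18%). It was Fkbp10 (edgeR adjusted p = 0.047), lowest in replicate 1 of both populations. Another 6 of the 27 genes had an unadjusted p under 0.05, a total of 7 of 27, against 25.3% of all genes. These shares were close to those over all genes. With DESeq2, 3 of the 27 passed, against 7.83% of all genes, namely Tagln2, Fkbp10 and Hsd11b1. Without the libraries numbered 1 the count was 11 of 27, against 31.1% of all genes. Without those numbered 2 or 3 it was 0, against 1.95% and 0.578% of all genes. Each fit that left out a number had 1 residual degree of freedom.

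Over all genes, edgeR's quasi-likelihood test of LPC against HPC with group as the only term called 5 genes higher in LPC (0.0419%) and 0 lower at an adjusted p under 0.05. None of the 27 was among the 5, and all 27 had an unadjusted p under 0.05, as did 514 genes higher in LPC (4.31%). DESeq2 called 25 of the 27, against 0.856% of genes called higher, and limma-voom 0, against 0.0419%. Blocked by replicate number, the edgeR fit called 25 of the 27, all but Bcan and Gfod1, against 1.1% of genes called higher. Without LPC replicate 1 the unblocked test called 3 of them, A230050P20Rik, Anpep and Mrgbp, against 17 genes called higher in all (0.141%). Without LPC replicate 3 it called 2, Pde3a and Tg, against 16 genes (0.133%). Since the genes were chosen on this contrast, these counts describe how each test treats them and lend the choice no support. The median log2 fold change of the 27 was 0.82, against 0.01 over all genes tested.

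Known relatives and partners of the members were looked up by role, in 23 lists holding 160 gene entries, of which 109 passed the filter. The lists were drawn up after the 27 genes were known. Without the block edgeR called none of the 109, while 8 higher and 7 lower had an unadjusted p under 0.05 (against 4.31% and 5.06% of all genes). With the block it called 3 higher in LPC, Hapln4, Cnn2 and Serpinh1 (against 1.1% of all genes), and 2 lower, Fam212b and Chd9 (against 1.43%). Their median log2 fold change was 0.03, with 56 of 109 positive.

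Hapln4, which encodes a link protein of the perineuronal matrix of brevican-bearing neurons, was at 39.2 ± 7.58 CPM in LPC and 20.9 ± 4.59 CPM in HPC (SD, n = 3 each; blocked edgeR fit: log2 fold change 0.90, adjusted p = 0.013). Of the other lecticans, Acan and Ncan were nearly unread, at 0 CPM in LPC and 0.0184 CPM in HPC, 1 read each in total, and Vcan was at 2.02 ± 0.605 and 2.10 ± 0.828 CPM. Averaged over the 6 libraries, Bcan was the one lectican above 10 CPM, a level that its choice required. In HPC its mean was only 5.15 CPM.

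Of the actin-binding relatives of Tagln2, Cnn2, a calponin gene, was at 32.8 ± 10.8 CPM in LPC and 20.2 ± 5.69 CPM in HPC (SD, n = 3 each; blocked edgeR fit: log2 fold change 0.67, adjusted p = 0.034). Its groups overlapped, and it passed only beside its number. Cnn3, another calponin gene, averaged 304 ± 13.3 CPM in LPC and 255 ± 25.9 CPM in HPC without passing. Tagln, the smooth muscle transgelin gene, averaged 0.224 and 0.220 CPM.

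Among 11 genes of collagen folding and modification, the partners of Fkbp10, only Serpinh1 passed, with the block. It encodes the collagen chaperone HSP47 and was at 901 ± 114 CPM in LPC and 640 ± 61.0 CPM in HPC (SD, n = 3 each; blocked edgeR fit: log2 fold change 0.47, adjusted p = 0.046). The median log2 fold change of the 11 was 0.01. Fkbp9, the relative with most reads, was at 836 ± 53.6 and 785 ± 30.2 CPM.

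The 16 other NuA4 subunit genes set beside Mrgbp were all tested and none passed. Their median log2 fold change was 0.08, against 0.80 for Mrgbp, and it ran from -0.11 for Trrap to 0.31 for Kat5, the catalytic subunit. Of the 8 other CHD remodeler genes beside Chd7, Chd9 was lower in LPC with the block, at 102 ± 24.3 CPM in LPC and 157 ± 7.56 CPM in HPC (SD, n = 3 each; blocked edgeR fit: log2 fold change -0.66, adjusted p = 0.044). The other relative that passed, Fam212b, is the paralogue of Fam212a and lay the other way. It was at 4.37 ± 1.66 CPM in LPC and 19.6 ± 17.5 CPM in HPC (blocked edgeR fit: log2 fold change -1.92, adjusted p = 0.028), with a wide HPC spread.

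For Tg and Hoxd13, most of the genes listed beside them had few or no reads. All 8 genes of thyroid hormone production beside Tg averaged under 1 CPM, and Pax8 and Foxe1 had no read in any library. The gene Sla overlaps Tg on the opposite strand, and whether its reads enter the Tg count was not tested. Of 11 HOX and neighbouring genes beside Hoxd13, 10 averaged under 1 CPM, and 5 of them had no read. The exception, Hoxd3, was at 20.6 ± 0.978 CPM in LPC and 18.1 ± 1.36 CPM in HPC (SD, n = 3 each) and did not pass. Amn, which encodes the membrane partner of cubilin, averaged 0.125 CPM in LPC and 0.281 CPM in HPC, and Apob, whose product Mttp loads with lipid, 0 and 0.0301 CPM. Other partners of these genes were read. P4hb, which encodes the other subunit of the Mttp complex, was at 1397 ± 155 CPM in LPC and 1480 ± 67.4 CPM in HPC. Beside Cubn, the cobalamin carrier gene Tcn2 was at 240 ± 69.6 and 307 ± 62.8 CPM, and the endocytic receptor gene Lrp2 at 5.50 ± 0.869 and 6.50 ± 1.02 CPM. None of these 3 passed.

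Egfr, the receptor gene for transforming growth factor alpha, had no read in any library. The related receptor genes Erbb2, at 32.6 ± 4.31 CPM in LPC and 22.8 ± 5.32 CPM in HPC, and Erbb3, at 132 ± 20.7 and 102 ± 32.8 CPM (SD, n = 3 each), were present and did not pass. Beside Hsd11b1, the glucocorticoid receptor gene Nr3c1 was at 49.5 ± 6.53 CPM in LPC and 47.8 ± 4.39 CPM in HPC. H6pd, which makes the cofactor for Hsd11b1, was at 54.3 ± 4.37 and 50.7 ± 10.9 CPM. The glucocorticoid-induced gene Fkbp5 was at 86.9 ± 12.5 and 93.3 ± 18.3 CPM. None of these 3 passed, and Hsd11b2, which encodes the enzyme of the opposite reaction, had 1 read in all.

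Of the tested phosphodiesterase genes beside Pde3a, none passed, and the median log2 fold change was -0.24, with 1 of 9 tested entries positive. Pde7a was at 58.9 ± 6.64 CPM in LPC and 73.4 ± 8.95 CPM in HPC, and Pde3b, the nearest paralogue of Pde3a, averaged 0.0907 and 0.0503 CPM. Lmo4, the paralogue of Lmo1 with most reads, was at 74.9 ± 2.84 CPM in LPC and 56.4 ± 3.63 CPM in HPC (SD, n = 3 each; blocked edgeR fit: log2 fold change 0.39, adjusted p = 0.079) and did not pass. Mme, which encodes the surface peptidase neprilysin and was set beside Anpep, was at 2.05 ± 0.299 and 0.770 ± 0.245 CPM (blocked edgeR fit: log2 fold change 1.39, adjusted p = 0.073). Mme did not pass and had 144 reads in all. The 4 tested genes beside Anpep had a median log2 fold change of -0.03, with 2 positive. Lnpep lay the other way, at 63.3 ± 16.2 CPM in LPC and 87.5 ± 8.18 CPM in HPC, and did not pass.

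**Figure D4:**
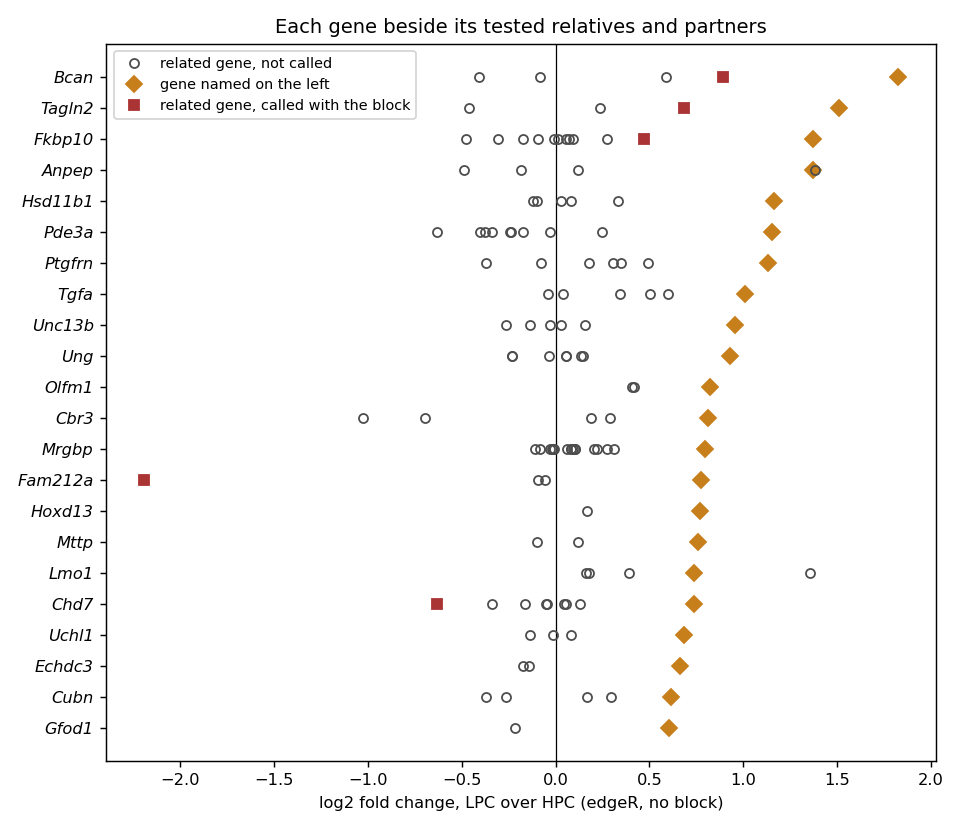
Log2 fold change of LPC over HPC from edgeR without the block, for each of 22 member genes (orange diamonds) and its tested relatives and partners in the same row (open circles), with those called by the blocked fit as red squares. Most circles lie near 0, apart from Mme beside Anpep and Lmo2 beside Lmo1 on the positive side and Dcxr and Cbr2 beside Cbr3 on the negative side, while the diamonds lie at 0.60 and above, where the choice of genes put them; Hapln4 beside Bcan, Cnn2 beside Tagln2 and Serpinh1 beside Fkbp10 lie on the positive side, and Fam212b and Chd9 on the negative side.

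A further 20 lists covered signalling pathways, cytoskeleton, chromatin and other functions, with 485 tested genes in all. Without the block edgeR called none of them, with 32 higher and 14 lower in LPC at an unadjusted p under 0.05, against 4.31% and 5.06% of all genes. With the block it called 11 higher and 7 lower, against 1.1% and 1.43% of all genes, and the median log2 fold change was 0.04. The actin cytoskeleton list held 3 of those called higher among 31 tested, namely Tpm1, Cnn2 and Tagln2, against 1.1% of all genes called higher. Tagln2 is one of the 27 and was chosen on this contrast, so its call adds nothing to the list's count. Tpm1 lay just outside the margin on the same contrast, at 1.27. The lists were chosen with earlier results of these data known, so their shares are description only. The blocked edgeR fit put Tpm1 1.51-fold higher in LPC (adjusted p = 0.028). Axon guidance also held 3 of 30 called higher, again against 1.1% of all genes, and 1 lower, Epha4. Those higher were Sema3f, a secreted semaphorin gene, and the Eph receptor genes Epha2 and Ephb2. Epha2 had few reads, at 0.749, 2.87 and 1.95 CPM in LPC and 0.276, 0.676 and 0.406 CPM in HPC. Sema3f overlapped between the groups, at 3.95 CPM in LPC replicate 1 and 4.06 CPM in HPC replicate 3. Epha4 overlapped too, at 8.80 CPM in LPC replicate 3 and 8.34 CPM in HPC replicate 2.

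In Notch signalling 1 of 17 was called higher, Notch1, and 1 lower, Notch3, both Notch receptor genes. In TGF-beta and BMP signalling, Ltbp4, a latent TGF-beta binding protein gene, was called higher, 1 of 30. Nuclear receptors and corepressors held Nr2f2, KLF and SP factors Klf10, and IGF, insulin and FGF signalling Fgfr1, each 1 called higher, of 25, 17 and 27 tested. Among those called lower were Dkk3 of 25 Wnt genes, Gpc6 and Ext2 of 24 proteoglycan and heparan sulfate genes, and Ago2 of 28 genes of RNA binding and developmental timing. Ephb2 was the most clearly separated of the genes called from these lists, at 10.4, 12.1 and 8.40 CPM in LPC and 4.36, 4.06 and 3.40 CPM in HPC. Its blocked log2 fold change was 1.37, and its adjusted p in edgeR was 0.013 blocked and 0.11 unblocked. For Klf10, Fgfr1, Dkk3 and Gpc6 the LPC and HPC libraries overlapped, and they passed only with the block. Klf10 was at 30.8 CPM in LPC replicate 1 and 40.0 CPM in HPC replicate 3.

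Some lists held no called gene with or without the block. These were Hedgehog signalling (10 tested, median log2 fold change 0.06), polycomb complexes (31, 0.00), DNA methylation (14, -0.01), histone acetyltransferases and coactivators (28, -0.04), homeobox and SOX factors (25, 0.18), ubiquitin ligases and deubiquitinases (31, -0.06), translation initiation and elongation (30, 0.15), cadherins and cell junctions (22, 0.06) and imprinted genes (9, 0.09). At an unadjusted p under 0.05 they held 8 genes higher in LPC and 3 lower, against 4.31% and 5.06% of all genes. The log2 fold change was positive for 27 of the 30 translation genes and for 21 of the 25 homeobox and SOX factors. The share of positive values over all genes was not counted.

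The 27 genes lay on 13 chromosomes in GENCODE M21 on GRCm38, with 5 on chromosome 2, and no pair of starts was closer than 7.09 Mb. The minus strand holds Bcan (chr3:87987531-88000230) and Cubn (chr2:13276338-13491813). The plus strand holds Tagln2 (chr1:172500047-172507380), Pde3a (chr6:141249269-141507448) and Hoxd13 (chr2:74668310-74671599). No overlap with another gene was annotated for 10 of the 27, Bcan, Tagln2, Ung, Olfm1, Cbr3, Mrgbp, Hoxd13, Chd7, Odf3l1 and Gfod1. For 5, Anpep, Hsd11b1, Pde3a, Ptgfrn and 2700081O15Rik, an overlapping gene lies on the same strand. For 15 one lies on the opposite strand, among them Lamb3 over Hsd11b1, Sla over Tg, Trmt10a over Mttp and Rtn3 over 2700081O15Rik. Reads of such a neighbour may be included in these counts.

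Measured on the longest coding transcript, the 27 genes had a median transcript length of 2757 bases, against 3325 over 9300 genes at 10 CPM or more, and a median of 6 exons, against 10. Their median 3′ untranslated region was 799 bases, against 1233, and their median GC content 52.6%, against 49.9%. All of these medians lay within the middle range of genes at 10 CPM or more, from the lower to the upper quartile. Single members ranged from Fam212a, with a transcript of 1025 bases, to Unc13b, with 14754, and Cubn had 67 exons.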

How the data were processed

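RNA from B16-F3 cells sorted into LPC and HPC was made into QuantSeq 3′ libraries and sequenced on an Illumina instrument, per the labels' protocols. STAR and the mouse genome GRCm38 are named in the submitters' processing notes. The authors deposited raw counts per gene. For the counting program, its strand setting, the annotation and molecular identifiers, nothing is stated: they were not given in the sources used here. Columns were matched to samples by name.

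CPM was computed from column totals of 14695822 to 22186743 counts, and counting error follows from each count. The 27 genes, the gene lists and the lists of relatives were chosen with earlier results of these data known. For naming, a separate rule gave values in every library for up to 30 of the chosen genes with the largest ratios, which covers all 27; genes just outside the margin are given by their margin or means. Relatives are named where they were called, have a known direct role or are other members of the same family or list. Those that were not called were picked after their values were seen. edgeR 4.0.16 (R 4.3.3; filterByExpr, TMM, quasi-likelihood test, Benjamini-Hochberg adjustment, threshold 0.05) was fitted to all 6 libraries and 11921 genes with group as the only term, and again with the replicate number. DESeq2 1.42.0, limma 3.58.1 (voom), other scalings, no filter, other limits and each library left out were the alternatives. The scripts were tested on simulated data.

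Deviations of equally numbered LPC and HPC libraries from their group means correlated at 0.425, 0.353 and 0.651 over 11921 genes for numbers 1, 2 and 3, and each library matched its own number best. The numbers therefore pair the libraries by the data. The labels do not say what a number stands for.

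Positions are from GENCODE M21, in which 21842 of 22740 gene IDs (96.1%) were found. Promoters are from RefSeq on GRCm38.p6. A few items among the genes near the margin, the relatives and the lists are not reported here.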

Additional observations from a re-analysis of the deposited data

How the results depend on the processing

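The number of genes meeting the limits and not left out by name was 27, and under the same name rules it became 13 with a mean of at least 20 CPM, 601 with a margin of 1 and 10 with a margin of 1.5. With 1 library left out it ran from 27 to 59, being 59 without LPC replicate 1, 54 without LPC replicate 3, 41 without HPC replicate 2 and 51 without HPC replicate 3. The cause was not tested, though fewer libraries make the margin easier to meet. Genes called higher in LPC numbered 5 and became 16 with no filter on low counts, 102 with DESeq2 and 131 with the replicate block, and ran from 0 to 17 with 1 library left out. Genes called lower numbered 0 and became 12, 122 and 170 under the same settings, and ran from 0 to 27. Of the 27 genes, 0 were called, against 2 with no filter, 25 with DESeq2, 25 with the replicate block and 0 to 3 with 1 library left out. By replicate number, 1 of the 27 and 379 genes in all were called. No filter gave 3 and 1029, DESeq2 gave 3 and 933, and leaving out 1 number gave 0 to 11 and 69 to 3732, with 1 residual degree of freedom. The cause of these shifts was not tested. Over 243 single values of the 27 genes, the log2 fold change kept its direction and ran from 0.50 to 2.30; the margin that chose the genes fixes this direction, so it is no sign of stability. Bcan and Tagln2 had the fewest reads, down to 44 and 48 in an HPC library. Their HPC spreads of 59.1% and 48.3% of the mean were well above the 10.1% and 9.84% that counting alone gives.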
